A study of Sus scrofa with 6 samples.

Results

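Genes for mitochondrial ribosomal proteins were examined in longissimus dorsi, a long muscle of the back, from 3 adipocyte-specific UCP1 KI pigs and 3 WT pigs, all 6 months old, with 1 RNA-seq library per pig. UCP1 is an uncoupling protein of the inner mitochondrial membrane that turns the proton gradient into heat. The knock-in was designed for expression in adipocytes, so the muscle fibres measured here were not its target. The sample labels name no other allele or treatment for either group, while some legends of the paper mention cold, and whether these pigs were exposed to it is not settled here. The paper's discussion leaves cold acclimation of UCP1 KI pigs to later work. *UCP1* had no identifier under its symbol in the gene name table, and the knock-in was therefore not checked in these libraries. The members are the pig genes whose symbol begins with *MRPL* or *MRPS* followed by a digit and that had 10 or more counts in at least 3 libraries. The name table held 65 identifiers with such a symbol, 63 had counts, and all 63 passed the count rule and entered the test over 13402 genes. *MRPS2* and *MRPS28* were the 2 without a row of counts and were not analysed here. By symbol, 40 members belong to the large subunit and 23 to the small subunit.

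Mitochondria carry their own small genome, which encodes a few core subunits of the respiratory chain and ATP synthase, and they translate these messages on a ribosome of their own. All proteins of that ribosome are encoded in the nucleus, made in the cytosol and imported, while its rRNAs are transcribed inside the organelle. The small subunit binds the mRNA and decodes it, and the large subunit forms the peptide bonds and sits at the inner membrane where the products are inserted. Some of its proteins descend from the bacterial ribosome and others were added in the mitochondrial lineage. Skeletal muscle, and slow oxidative fibres in particular, is rich in mitochondria.

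The libraries held between 30220951 and 35066624 counts on genes. Scaled counts (CPM, the count of a gene divided by its library total and given per 1e+06 counts) were computed with TMM factors, which estimate a common scale from most genes and here were lowest in WT replicate 2, at 0.781, and highest at 1.18 in the second UCP1 KI pig. WT replicate 2 stood apart, with 56.5% of its counts on its 20 most abundant genes against 39.0% to 44.8% in the other pigs. Skeletal muscle genes were abundant in every library, with *ACTA1*, the muscle actin, between 1144243 and 1732069 counts. The counts behind the members were deep, with 61 of 63 at 100 or more in every pig and the lowest value, 14, in *MRPL10*. A gene was called higher or lower at an unadjusted p under 0.05 in edgeR's quasi-likelihood F test and a log2 fold change beyond 0.5 in size, the limits of the study. In all, 515 genes were called higher and 581 lower, and with library size in place of TMM these counts were 928 and 195 and the median over all tested genes moved from -0.02 to 0.24. Over all genes, 0 had a Benjamini-Hochberg adjusted p under 0.05 in this test, 1099 had an unadjusted p under 0.05, and DESeq2 gave an adjusted p under 0.05 to 127.

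Of the 63 mitoribosomal genes, 5 were called higher in UCP1 KI muscle and 0 were called lower. The 5 make up 7.94% of the members, and 3.84% of all genes tested were called higher and 4.34% lower. They are *MRPS10* and *MRPS18B* of the small subunit and *MRPL4*, *MRPL13* and *MRPL19* of the large subunit. All pigs of the UCP1 KI group were above all WT pigs for 11 members, or 17.5%, against 7.59% of all genes, and all were below for 0 members, against 7.69% of all genes. The members' log2 fold changes ran from -0.49 to 1.53 with a median of 0.13, and 37 of 63 were above 0, while 48.7% of all genes were above 0. With library size only, 7 of the 63 members were called higher, a larger share than the 6.92% of all genes. Under that scaling 0 members were called lower, against 1.46% of all genes. There 59 of the 63 members were above 0, a larger share than the 68.1% of all genes. The smallest adjusted p of a member was 0.583, and the exact permutation test could not go below 0.1 with 3 pigs against 3. The count of 5 depended on single animals, at 1 without WT replicate 2, 2 without UCP1 KI replicate 3, 3 without each of UCP1 KI replicates 1 and 2 and WT replicate 1, and 8 without WT replicate 3. The members' share fell below that of all genes called higher in the same fit without WT replicate 2 (1.59% beside 2.40%) and without UCP1 KI replicate 3 (3.17% beside 3.90%). It was near that share without WT replicate 1 (4.76% beside 4.15%). It stayed above without UCP1 KI replicate 1 (4.76% beside 3.39%), UCP1 KI replicate 2 (4.76% beside 2.10%) and WT replicate 3 (12.7% beside 5.40%). The median of the members was likewise 0.01 without WT replicate 1, with 33 members above 0, 0.24 without WT replicate 3 and 0.06 without UCP1 KI replicate 3.

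**Figure D1:**
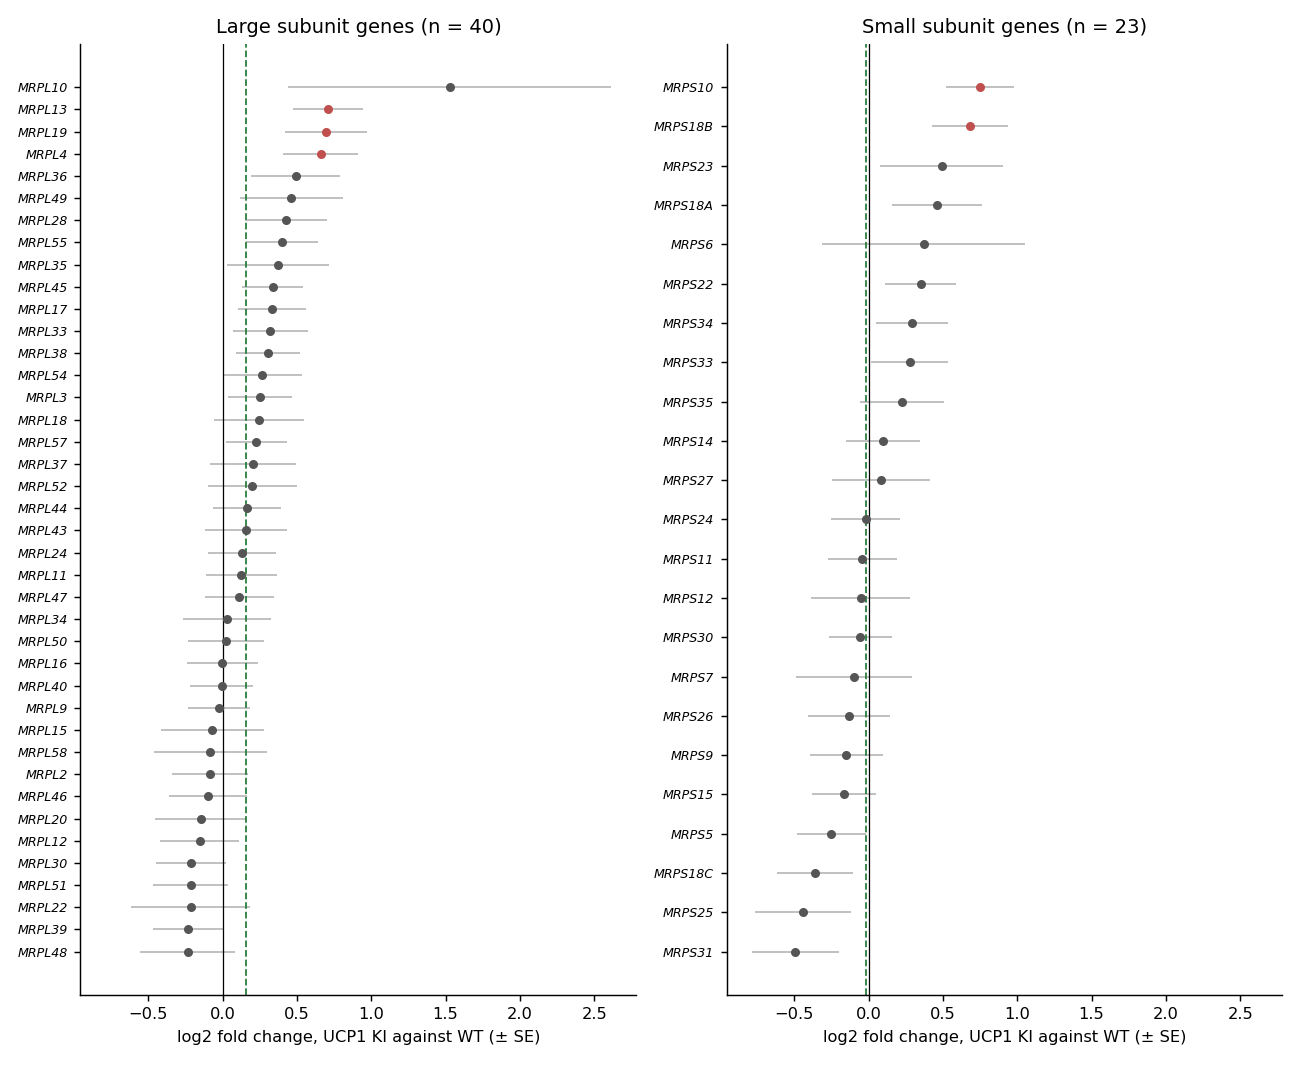
Log2 fold change of each mitoribosomal gene, UCP1 KI against WT, on the x axis with bars of 1 standard error, genes ordered by value within the large (left) and small (right) subunit. Red points are the 5 genes called higher, dashed green lines are the medians of 0.16 and -0.02 (0.42 and 0.24 with library size only), and the widest bars belong to *MRPL10* and *MRPS6*.

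*MRPS10* encodes a small-subunit protein with a bacterial counterpart. Its gene, ENSSSCG00000001638, spans bases 37318344 to 37329246 of chromosome 7 in Sscrofa11.1. The CPM values were 28.1, 35.5 and 35.4 in UCP1 KI replicates 1 to 3 and 16.8, 19.8 and 22.4 in WT replicates 1 to 3. The lowest UCP1 KI pig lay above the highest WT pig, and the means were 33.0 ± 4.24 and 19.7 ± 2.82 CPM (SD, n = 3 each). The log2 fold change was 0.75 with an SE of 0.23 (edgeR, unadjusted p = 0.0122, adjusted p = 0.583). The gene was called in every one of the 6 fits that left out a pig, with log2 fold changes between 0.64 and 0.85, and it was the only one of the 5 called in all of them.

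*MRPL13* encodes a large-subunit protein that also has a bacterial counterpart, and its gene ENSSSCG00000005996 lies on chromosome 4 from 18608919 to 18671523. It reached 33.3, 35.4 and 49.1 CPM in the UCP1 KI pigs and 24.0, 22.6 and 25.4 CPM in the WT pigs. UCP1 KI replicate 3 was the high value, while the WT pigs lay close together. The log2 fold change was 0.71 ± 0.24 (SE) with an unadjusted p of 0.0172 in edgeR, and the call was lost when either UCP1 KI replicate 3 or WT replicate 2 was left out.

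*MRPL4* encodes a protein whose bacterial relative lines the exit tunnel of the large subunit. This gene, ENSSSCG00000013656, lies on chromosome 2 from 69063679 to 69082692. Its values were 25.6, 29.9 and 24.2 CPM among UCP1 KI pigs and 16.9, 12.9 and 20.6 CPM among WT pigs. The groups did not overlap, with WT replicate 2 the lowest pig. The log2 fold change of 0.66 had an SE of 0.25 and an unadjusted p of 0.0313 in edgeR.

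*MRPL19* encodes a large-subunit protein with a bacterial counterpart at the interface between the subunits. Its gene ENSSSCG00000021007 is on chromosome 3 from 67604613 to 67611323. The CPM values were 16.1, 15.5 and 20.5 among UCP1 KI pigs against 9.23, 8.94 and 14.0 among WT pigs. WT replicate 3 was the WT pig nearest to the UCP1 KI group. The log2 fold change was 0.69 ± 0.28 (SE, edgeR unadjusted p = 0.0372). RefSeq places *GCFC2* over part of this gene, and *GCFC2* had between 42 and 77 counts in each pig and a log2 fold change of 0.02.

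*MRPS18B* encodes 1 of 3 mammalian relatives of a single bacterial small-subunit protein, each of which holds its own place in the ribosome. It is gene ENSSSCG00000029425 on chromosome 7, from 23166314 to 23172718. Its values were 55.0, 69.4 and 60.9 CPM among UCP1 KI pigs and 34.9, 31.0 and 49.8 CPM among WT pigs. WT replicate 3 again came nearest to them. The log2 fold change of 0.68 had an SE of 0.26 and an unadjusted p of 0.0303 in edgeR. *PPP1R10*, which overlaps it in RefSeq, had a log2 fold change of -0.39, and the strand setting of the counting is not given in the sources used here, so reads shared between the 2 genes cannot be told apart. Each of *MRPL4*, *MRPL19* and *MRPS18B* kept its call in 2 of the 6 fits that left out a pig. One of these was the fit without WT replicate 3 for all of them, and the other was without UCP1 KI replicate 3 for *MRPL4*, UCP1 KI replicate 2 for *MRPL19* and UCP1 KI replicate 1 for *MRPS18B*.

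**Figure D2:**
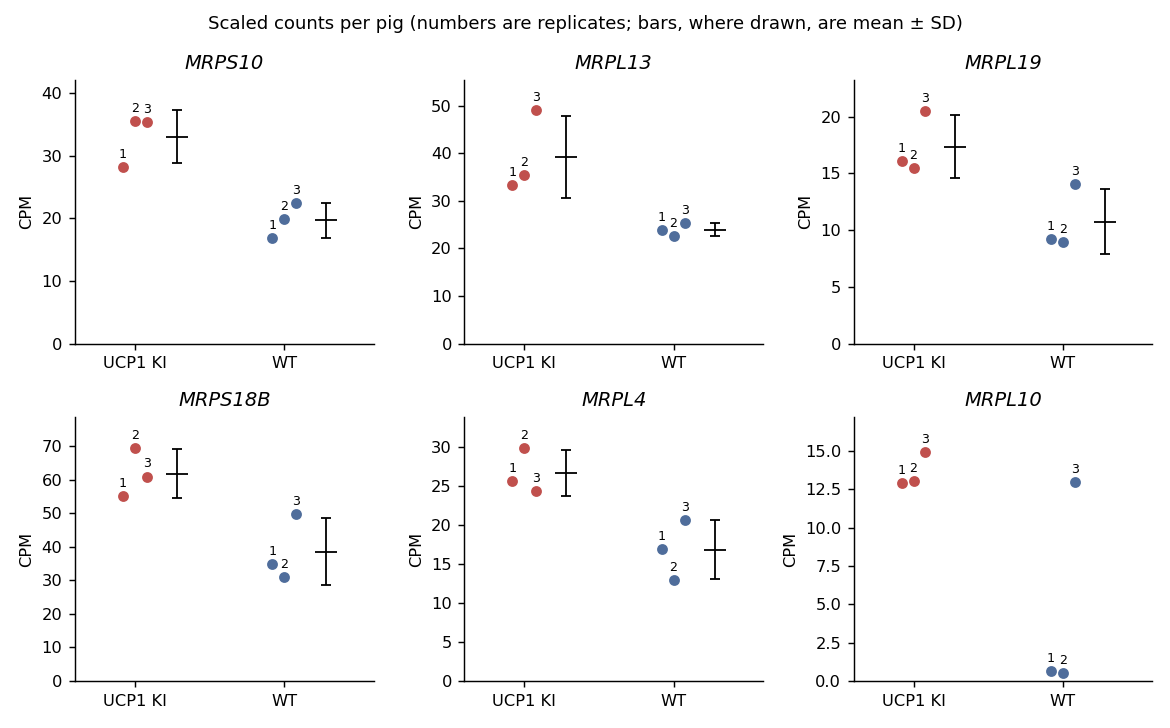
CPM on the y axis, from 0, for each UCP1 KI pig (red) and WT pig (blue), numbered by replicate, for the 5 genes called higher and *MRPL10*, with black bars at the group mean ± SD for the former. The groups do not overlap in the 5 called genes, while for *MRPL10* WT replicates 1 and 2 lie near 0 and WT replicate 3 lies among the UCP1 KI pigs.

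*MRPL10* and *MRPS6* varied far more between pigs of a group than the other members. *MRPL10* encodes a protein at the base of the flexible stalk of the large subunit, where translation factors dock, and lies on chromosome 12 from 24076484 to 24083086. It had 399, 465 and 564 counts among UCP1 KI pigs and 24, 14 and 390 among WT pigs. Thus 2 WT pigs were more than 10-fold below the other 4 pigs, and WT replicate 3 was at 13.0 CPM beside 12.9 to 14.9 CPM in the UCP1 KI group. The log2 fold change of 1.53 had an SE of 1.09 and did not pass the test (edgeR unadjusted p = 0.198). Without WT replicate 3 it was 4.53 and was called, and the gene was also called with the replicate number as a block. *MRPS6*, a small-subunit protein with a bacterial counterpart, was at 63.2, 62.5 and 34.1 CPM among UCP1 KI pigs and at 90.9, 17.4 and 15.3 CPM among WT pigs. WT replicate 1 was the highest of all pigs and the other WT pigs were the lowest, so the groups overlapped and the log2 fold change was 0.37 ± 0.68 (SE). Its span on chromosome 13 overlaps *SLC5A3*, and it was called only without WT replicate 1, at a log2 fold change of 1.70.

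As a set, the members varied less within groups than genes of similar level. The median within-group SD of log2(CPM + 1) was 0.271 over the 63 members, against 0.342 over the 9384 genes in the same range of mean CPM. It was above 0.5 for 6 members, namely *MRPL10*, *MRPS6*, *MRPS23*, *MRPL22*, *MRPS7* and *MRPL58*, and for 25.9% of those genes. Most members had small fold changes, and *MRPS30*, with 11.2 to 12.5 CPM among UCP1 KI pigs and 12.1 to 13.2 CPM among WT pigs, had a log2 fold change of -0.06 (0.20 with library size only).

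The large and the small subunit were then compared. Among the 40 large-subunit genes, 3 were called higher and 0 lower, 26 had a log2 fold change above 0, 8 had all UCP1 KI pigs above all WT pigs, and the median was 0.16. These are 7.50% called higher and 65.0% above 0, beside 3.84% and 48.7% of all genes, and 8 of 40 without overlap, beside 7.59%. Among the 23 small-subunit genes, 2 were called higher and 0 lower, 11 were above 0, 3 had all UCP1 KI pigs above all WT pigs, and the median was -0.02, or 0.24 with library size only, level with all genes under that scaling. Here the shares were 8.70% called higher, 47.8% above 0 and 13.0% without overlap, and with library size only 39 of 40 large-subunit and 20 of 23 small-subunit genes were above 0. In the mammalian structure the products of *MRPS18A* and *MRPS30* sit in the large subunit in spite of their names, and moving both left medians of 0.16 over 42 genes and -0.02 over 21. The difference of the medians was 0.18, but it was 0.03 without WT replicate 1, 0.05 without WT replicate 2, 0.09 without UCP1 KI replicate 2 and 0.03 over the members that overlap no other RefSeq gene. The large-subunit median was 0.02 without WT replicate 1, 0.29 without WT replicate 3 and 0.42 with library size only. The small-subunit median itself was above 0, at 0.08 to 0.10, when UCP1 KI replicate 2 or either of WT replicates 2 and 3 was left out.

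Within each pig the mean log2(CPM + 1) of the large-subunit genes can be set against that of the small-subunit genes, which takes out the scale of the library. The difference also depends on gene lengths, so it is compared between pigs only. The large minus small difference was 0.14, 0.23 and 0.30 in UCP1 KI replicates 1 to 3 and -0.05, 0.11 and 0.30 in WT replicates 1 to 3. WT replicates 1 and 2 had the lowest differences, and WT replicate 3 was level with the highest UCP1 KI pig. Group means were 0.22 ± 0.08 among UCP1 KI pigs and 0.12 ± 0.18 among WT pigs (SD, n = 3), so their difference was smaller than the spread between WT pigs. Without *MRPL10* the values were 0.18, 0.26 and 0.33 for the UCP1 KI pigs and 0.04, 0.22 and 0.33 for the WT pigs. WT replicate 2 then lay above UCP1 KI replicate 1, and the group means were 0.25 ± 0.08 and 0.20 ± 0.14 (SD, n = 3).

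**Figure D3:**
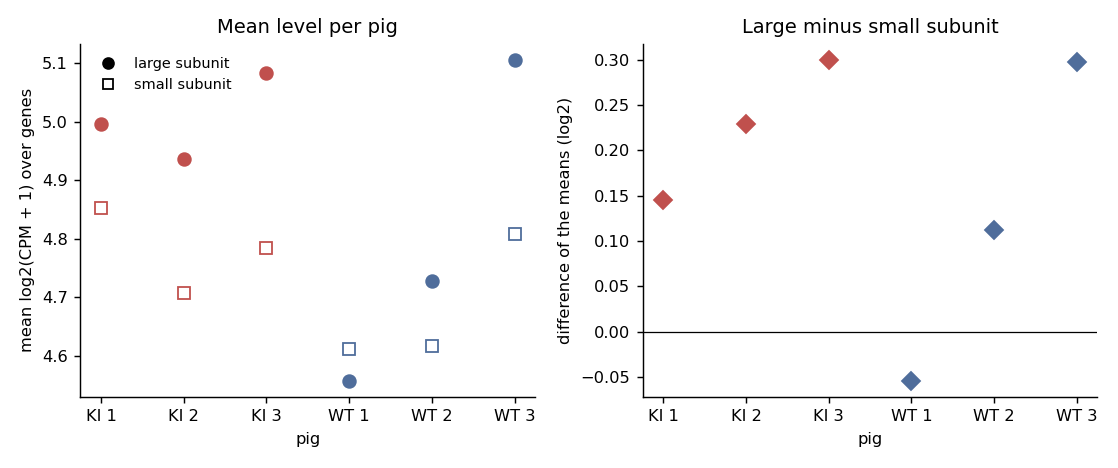
Left, mean log2(CPM + 1) over the 40 large-subunit genes (filled circles) and the 23 small-subunit genes (open squares) in each UCP1 KI pig (red) and WT pig (blue), on an axis that does not start at 0. Right, the large minus small difference of those means in log2 units. WT replicate 1 has the lowest difference, at -0.05, and WT replicate 3 matches UCP1 KI replicate 3 at 0.30.

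The WT pigs differed widely among themselves. WT replicate 1 had the lowest CPM of all 6 pigs for 30 of the 63 members, or 47.6%, against 19.4% of all genes tested. WT replicate 2 was lowest for 16 members and WT replicate 3 for 2. WT replicate 3 was instead the highest pig for 23 members and UCP1 KI replicate 3 for 17. The summed CPM of the members was 2345, 2143 and 2313 among UCP1 KI pigs and 1823, 2025 and 2417 among WT pigs, with means of 2267 ± 109 and 2088 ± 302 (SD, n = 3). On this TMM scale the groups overlapped, since WT replicate 3 had the highest sum and WT replicates 1 and 2 the lowest. As a share of the library total, with no TMM factor, the members took 0.222%, 0.253% and 0.271% of counts in the UCP1 KI libraries and 0.194%, 0.158% and 0.222% in the WT libraries, with UCP1 KI replicate 1 and WT replicate 3 almost level and no overlap. WT replicate 2 was then the lowest pig, while WT replicate 1 had the lowest sum on the TMM scale.

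**Figure D4:**
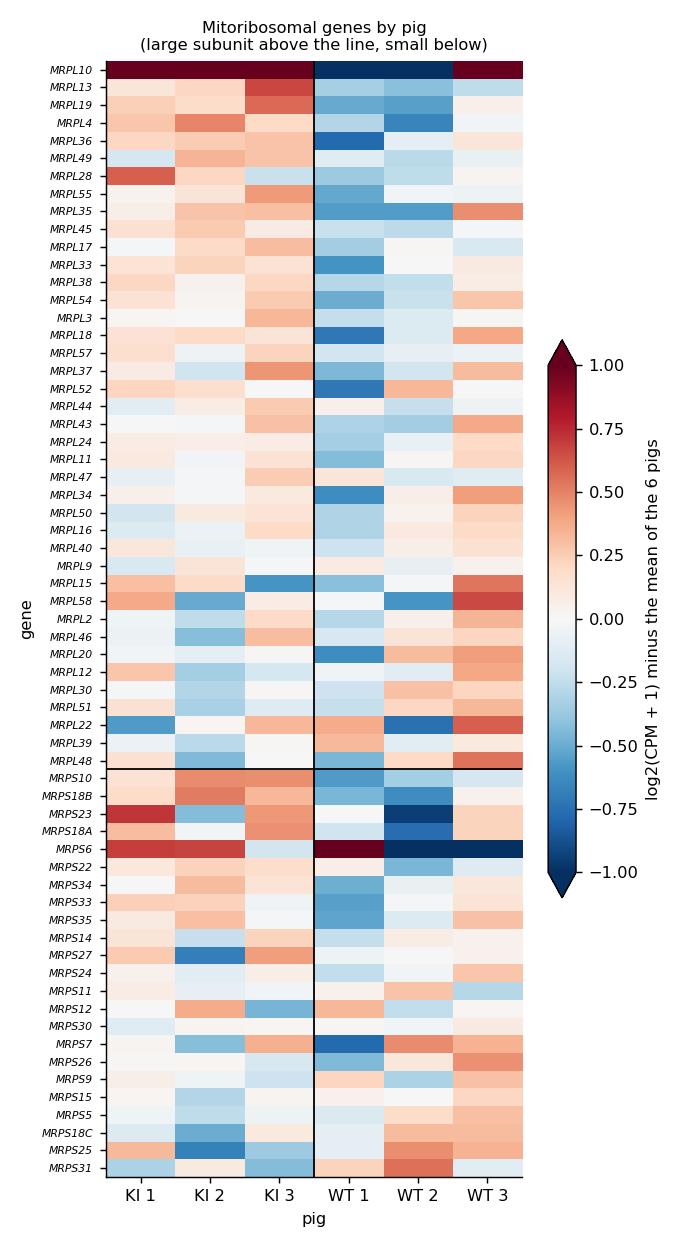
Each row is a member and each column a pig, with colour showing log2(CPM + 1) minus the mean of the 6 pigs, limited to 1 in either direction. Genes are ordered by fold change within the large subunit (above the line) and the small subunit (below), and WT replicate 1 is lowest for 30 of 63 rows and WT replicate 3 highest for 23.

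Members with a bacterial counterpart and those particular to mitochondria were set side by side, each protein classed by the position it takes in the ribosome, so that *MRPS18B*, a relative of a bacterial protein that holds a place of its own, counts as particular to mitochondria. The 35 with a counterpart had a median log2 fold change of 0.10, with 4 called higher (11.4%), and the 28 without had 0.18, with 1 called higher (3.57%, beside 3.84% of all genes), *MRPS18B*. The order of the medians differed by subunit in the structure. With and without a counterpart they were 0.19 and 0.16 in the large subunit and -0.05 and 0.25 in the small subunit. Classed by descent instead, *MRPS18B* and *MRPS18A*, a relative of the same bacterial protein, would move to those with a counterpart. The lowest fold changes were in the small subunit. *MRPS31* was at 7.24, 9.95 and 6.62 CPM among UCP1 KI pigs and 11.0, 14.0 and 8.54 CPM among WT pigs, a log2 fold change of -0.49 ± 0.29 (SE). *MRPS25* was at 103, 50.8 and 63.4 CPM against 76.5, 114 and 105 CPM, or -0.44 ± 0.32 (SE), and was called lower only without UCP1 KI replicate 1. Neither passed the test with all pigs, and UCP1 KI and WT pigs overlapped in both.

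The fold changes of the 3 relatives of bacterial S18 differed in sign. *MRPS18A* had a log2 fold change of 0.46 and *MRPS18C* of -0.36, neither called, beside 0.68 for *MRPS18B*, and *MRPS18A* was called higher without WT replicate 3. The lowest large-subunit values were -0.24 for *MRPL48*, -0.23 for *MRPL39* and -0.22 for *MRPL22*, none of them called, and with library size only *MRPL48* and *MRPL22* were just above 0. Members singled out for their roles were not called either. *MRPL12*, which also binds the mitochondrial RNA polymerase, was at -0.15 ± 0.27 (SE), above 0 with library size only. *MRPL45*, which lies by the exit tunnel at the inner membrane, was at 0.34 ± 0.21 (SE) with every UCP1 KI pig above every WT pig. *MRPL58*, a ribosome-bound peptidyl-tRNA hydrolase, was at -0.08 ± 0.38 (SE), and *MRPS12*, of the decoding centre, at -0.05 ± 0.33 (SE), both above 0 with library size only. The RefSeq record matched to the symbol *MRPS12* is classed as a long noncoding RNA, unlike those of the other members. *MRPS23* was at 0.49 ± 0.41 (SE) with overlapping groups.

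The 63 members lie on 17 chromosomes, and 21 overlap another gene in RefSeq. *MRPS11* and *MRPL46* are neighbours on chromosome 1 with 38 bases between their spans, one encoding a small-subunit and the other a large-subunit protein. Both had log2 fold changes near 0, at -0.04 ± 0.23 and -0.10 ± 0.26 (SE).

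Genes that build and serve the mitochondrial ribosome were examined next. Of 24 genes for mitoribosome assembly and rRNA processing, 1 was called higher (4.17%, about the 3.84% of all genes) and 0 lower, 18 were above 0, and the median log2 fold change was 0.14. The called gene was *MPV17L2*, an inner-membrane protein needed for ribosome assembly, at 24.95, 31.2 and 35.9 CPM among UCP1 KI pigs and 18.1, 17.0 and 20.7 CPM among WT pigs, with a log2 fold change of 0.72 ± 0.23 (SE, edgeR unadjusted p = 0.0156). Its groups did not overlap, and the call was lost when either UCP1 KI replicate 3 or WT replicate 2 was left out. *TFB1M*, which methylates the small-subunit rRNA, was at -0.15 ± 0.25 (SE), and above 0 with library size only. Over the 66 genes for assembly, translation factors, mitochondrial transcription, other mitoribosomal proteins and transcription factors together, *MPV17L2* was the 1 gene called in either direction, or 1.52% beside 8.18% of all genes. This count was 0 without WT replicate 2, 2 without UCP1 KI replicate 1 or WT replicate 1 or with the replicate block, 6 with library size only (9.09% beside 8.38% of all genes) and 6 without WT replicate 3 (9.09% beside 11.11%).

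Of 14 mitochondrial translation factors, 0 were called, and the median was 0.04. The elongation factors gave 0.22 ± 0.25 for *TUFM*, 0.27 ± 0.25 for *TSFM* and -0.14 ± 0.31 for *GFM1*, and the initiation factor *MTIF2* gave -0.07 ± 0.31 (log2 fold change ± SE), the latter 2 above 0 with library size only. Of 14 genes for mitochondrial transcription and mRNA stability, 0 were called, 12 were above 0, and the median was 0.23. *POLRMT*, the mitochondrial RNA polymerase, had a log2 fold change of 0.36 ± 0.22 (SE) with no overlap between groups. *LRPPRC*, which stabilises mitochondrial mRNAs, was at 0.29 ± 0.22 (SE), and *TFAM*, which packages the mitochondrial genome, was at 0.22 ± 0.45 (SE).

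Among 5 mitoribosomal proteins that carry other symbols, 0 were called and the median was -0.17. *DAP3*, a small-subunit GTP-binding protein, had 15, 723 and 848 counts among UCP1 KI pigs and 739, 440 and 688 among WT pigs. UCP1 KI replicate 1 was far below the other 5 pigs, and the log2 fold change of -0.46 ± 0.97 (SE) was 0.11 without it. *PTCD3*, a small-subunit protein of the pentatricopeptide family, was at 35.3, 21.8 and 43.8 CPM against 7.63, 34.3 and 37.2 CPM, with WT replicate 1 lowest and a log2 fold change of 0.35 ± 0.56 (SE). Of 9 transcription factors and coactivators tied to mitochondrial gene expression, 0 were called. *NRF1* was at -0.25 ± 0.26, *GABPA* at 0.33 ± 0.48 and *PPARGC1A* at -0.35 ± 0.55 (log2 fold change ± SE). *GABPA* was called higher without WT replicate 3 and *PPARGC1A* lower without UCP1 KI replicate 1.

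The messages that this ribosome translates, and the nuclear genes for the partners of their products, had medians below 0. The 13 mitochondrially encoded mRNAs had a median log2 fold change of -0.58 with 1 called lower (7.69%, beside 4.34% of all genes) and 0 higher. This median was -0.14 without WT replicate 2, the library that stood apart, and -0.29 with library size only. These mRNAs took 27.5%, 27.3% and 22.7% of all counts among UCP1 KI pigs and 31.2%, 40.7% and 22.3% among WT pigs. The 64 nuclear genes of the respiratory chain and ATP synthase had a median of -0.27, with 4 called lower (6.25%, beside 4.34% of all genes), 0 called higher and 6 above 0. Their median was -0.08 without UCP1 KI replicate 2, -0.44 without UCP1 KI replicate 1 and -0.05 with library size only. The 45 cytosolic ribosomal protein genes had a median of -0.20, or 0.08 with library size only, -0.09 without WT replicate 2 and -0.38 without WT replicate 1. Of these, 1 was called lower (2.22%) and 0 higher. All UCP1 KI pigs were below all WT pigs for 3 of the 13 mRNAs, 13 of the 64 nuclear genes and 4 of the 45 cytosolic genes. The share of all genes was 7.69%, and 0 genes of these lists had all UCP1 KI pigs above. Set within each pig against the nuclear respiratory chain genes, the summed CPM of the mitoribosomal genes was 15.0%, 24.6% and 17.9% among UCP1 KI pigs and 12.04%, 13.7% and 15.5% among WT pigs. WT replicate 3 lay above the lowest UCP1 KI pig, so the groups overlapped, and the means were 19.2% ± 4.93 and 13.7% ± 1.73 (SD, n = 3). The 24.6% is from UCP1 KI replicate 2, whose nuclear respiratory sum was 8698 CPM against 12888.5 or more in the other pigs. Its mitoribosomal sum was the lowest of its group. Set against the cytosolic ribosomal protein genes, the mitoribosomal sum was 9.50%, 8.83% and 11.3% in the UCP1 KI group and 8.74%, 6.34% and 8.48% in the WT group, with no overlap and means of 9.87% ± 1.27 and 7.85% ± 1.31 (SD, n = 3).

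**Figure D5:**
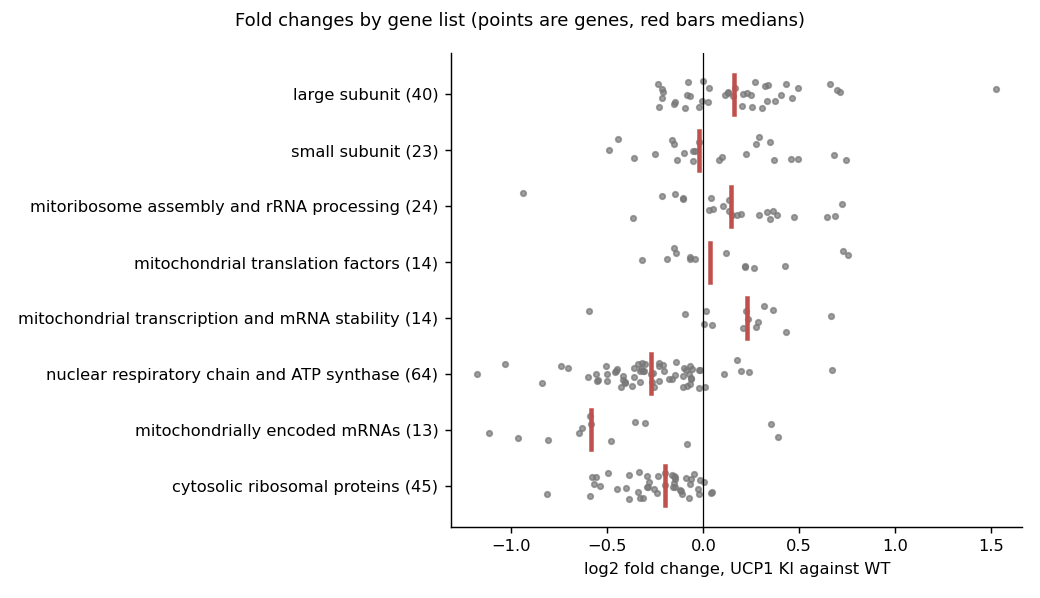
Log2 fold change, UCP1 KI against WT, of each gene (grey points) in the mitoribosomal subunits, in lists tied to mitochondrial gene expression and in the cytosolic ribosome, with medians as red bars and the number of genes in parentheses. The large-subunit median is 0.16, the nuclear respiratory chain median -0.27 and the median of the mitochondrially encoded mRNAs -0.58, and these are 0.02 without WT replicate 1, -0.08 without UCP1 KI replicate 2 and, leaving out WT replicate 2, -0.14.

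Markers of fibre type and of other cells differed between the same pigs. Markers with no counts under their symbol were *MYH7* and *TPM3* (slow), *MYH1*, *MYH2*, *MYH4* and *MYLPF* (fast), *HBA*, *LYZ* and *VWF*. Whether they lack that symbol in the name table or had no reads is not settled here, and the fibre sums leave out the myosin heavy chains. Of 8 slow fibre markers 6 had counts, none at 0, and their summed CPM ran from 7415 to 12814 among UCP1 KI pigs and from 4335 to 17900 among WT pigs, highest in WT replicate 1. Of 8 fast fibre markers 4 had counts, none at 0, with sums from 13683 to 43481 among UCP1 KI pigs, lowest in replicate 2, and from 27259 to 69592 among WT pigs. All 6 fibroblast markers had counts, none at 0, and summed to 235 to 434 CPM among UCP1 KI pigs and 741 to 1187 CPM among WT pigs, with 4 called lower. All 6 adipocyte markers had counts, summing to 66.1 to 131 CPM among UCP1 KI pigs and 68.9 to 297 CPM among WT pigs, and *LEP* was at 0 in 3 pigs. Of the 5 tested, 4 had log2 fold changes below 0 and were not called, from -1.26 for *ADIPOQ* to -0.80 for *CIDEC*, and *LIPE*, a lipase, was called higher at 1.12 ± 0.35 (SE) with no overlap between groups. Of 5 red blood cell markers 4 had counts, with sums of 11.6 to 76.4 CPM in the UCP1 KI group and 106 to 181 CPM in the WT group, *HBM* called lower and *AHSP* at 0 in UCP1 KI replicate 2. Of 6 leukocyte markers 5 had counts, none at 0, with sums of 18.5 to 55.5 CPM and 18.0 to 32.3 CPM in that order and *CD3E* called higher. Of 5 endothelial markers 4 had counts, none at 0, with sums of 272 to 508 CPM and 250 to 457 CPM, and *TEK* was called higher at 1.20 ± 0.24 (SE). Their part in the mitoribosomal values was not tested, and in muscle RNA fewer cells of a type and less RNA per cell cannot be told apart.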

How the data were processed

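RNA was extracted with TRIzol and sequenced as paired-end mRNA libraries. Per the submitters' processing notes, reads were checked with FastQC 0.11.2, trimmed with Trimmomatic 0.36, mapped to Sscrofa11.1 with HISAT2 2.0 and summarised with StringTie 1.3.3b. The program that made the gene counts, the annotation release and the strand setting are not given in the sources used here. The authors deposited raw counts per gene, not normalized, for 30476 genes and 6 pigs. The labels do not say whether pigs were littermates, so p-values measure the spread between these animals alone.

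The tests used edgeR 4.0.16 under R 4.3.3 (filterByExpr, TMM, condition as the only term, quasi-likelihood F test, two-sided), fitted over all 13402 genes kept. CPM used TMM-scaled totals. SE is the size of the log2 fold change divided by the square root of F. The two-sided exact permutation test enumerated all 20 assignments on log2(CPM + 1). The procedure was tested on simulated data. Symbols came from a table of Ensembl gene names. Positions came from RefSeq on Sscrofa11.1, matched by symbol for all 63 members. RefSeq holds 77 symbols of this form, and 12 without an identifier in the name table were not analysed here.

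The members and all gene lists were chosen with earlier results of these data known. Named genes were those past both limits, the 3 highest and 3 lowest of each subunit and genes fixed for their roles. *MRPS6*, *MRPL46*, *MRPS11*, *MRPS7*, *MRM2*, *ALDOC* and the genes overlapping members were added after their values were seen. Levels per gene length and promoter motifs were planned but not run, so levels of single genes are not compared with each other, and means, sums and ratios over lists, which depend on gene lengths, are compared between pigs only. Alternatives were DESeq2 1.42.0, other scalings and count filters, a replicate block, each pig left out, no fold limit, subunits by structure, and, chosen after seeing the data, the members without *MRPL10* or without those overlapping another gene.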

Additional observations from a re-analysis of the deposited data

How the results depend on the processing

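With TMM, median-of-ratios factors, scaling without the 20 most abundant genes, DESeq2 or another count filter, 5 members were called higher and 0 lower. With library size only, which moved the median of all genes to 0.24, 7 were higher, the members' medians were 0.40 for all, 0.42 for the large and 0.24 for the small subunit, and 6 other genes of mitochondrial translation were called. The same scaling turned *MRPL48* to 0.031, *MRPL22* to 0.025, *MRPL12* to 0.070, *MRPL58* to 0.12, *MRPS12* to 0.17, *MRPS30* to 0.20, *GFM1* to 0.070, *MTIF2* to 0.18 and *TFB1M* to 0.074. Without members overlapping another gene, the small-subunit median was 0.10 and the difference between subunits 0.033. Leaving out each pig in turn gave 678 to 1540 genes past both limits, 1 to 8 members higher, 0 to 1 lower, medians of 0.01 to 0.24 for all members, 0.02 to 0.29 for the large and -0.035 to 0.10 for the small subunit, a difference of 0.031 to 0.22, and 0 to 6 other genes of mitochondrial translation. In these fits 25 of 63 members had log2 fold changes of both signs, *MRPS6*, *MRPS11* and *MRPL46* among them, and genes named by rule ran from -0.47 to 0.021 (*MRPL48*), -0.53 to 0.060 (*MRPL22*), -0.36 to 0.023 (*MRPL12*), -0.34 to 0.32 (*MRPL58*), -0.32 to 0.16 (*MRPS12*), -0.35 to 0.11 (*GFM1*), -0.27 to 0.16 (*MTIF2*), -0.95 to 0.11 (*DAP3*), -0.094 to 0.69 (*PTCD3*), -0.23 to 0.012 (*TFB1M*), -0.15 to 0.50 (*TFAM*) and -1.11 to 0.13 (*PPARGC1A*). The causes were not tested. The replicate number as a block called 6 members, adding *MRPL10* at 3.09, and 2 other genes of mitochondrial translation. The labels give no pairing of the pigs. Correlations of same-numbered deviations were 0.02, 0.07 and 0.23, the last being the highest of all pairs. UCP1 KI replicates 1 and 2 each correlated best with a WT pig of another number. With 3 pigs per group these values cannot exclude a pairing. Depth limits *MRPL10* in WT replicates 1 and 2, at 24 and 14 counts, while 61 of 63 members had 100 or more counts in every pig.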

Other observations

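*MRPL10* and *DAP3* belong to a wider set of genes that were nearly absent from single pigs, which was noticed after the values were seen. Of the 13402 genes tested, 34 had 1 pig more than 10-fold below all other pigs when those were above 5 CPM, *DAP3* among them and 0 of the 63 members. Another 11 genes had 2 such pigs, among them *MRPL10* and *ALDOC*, a glycolytic aldolase. *ALDOC* had 313, 466 and 480 counts in UCP1 KI replicates 1 to 3 and 9, 18 and 338 in WT replicates 1 to 3, low in the same WT pigs as *MRPL10*. *MRM2*, which methylates the large-subunit rRNA, had 3, 8 and 707 counts among UCP1 KI pigs and 9, 532 and 508 among WT pigs, so that 3 pigs of both groups were low.

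*KGD4*, which some annotations name *MRPS36*, encodes a subunit of the oxoglutarate dehydrogenase complex and carries no symbol of the mitoribosomal form in the pig. It was at 28.7, 36.9 and 45.6 CPM among UCP1 KI pigs and 49.9, 52.5 and 62.2 CPM among WT pigs, with all UCP1 KI pigs below all WT pigs and a log2 fold change of -0.57 ± 0.25 (SE, edgeR unadjusted p = 0.0538), which did not pass the test.

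Outside the mitochondrion, 12 of 35 proteasome subunit genes were called higher (34.3%, beside 3.84% of all genes) and 0 lower, and 7 had all UCP1 KI pigs above all WT pigs (20% of 35, beside 7.59% of all genes). Their median log2 fold change was 0.50, or 0.80 with library size only, beside 0.13 and 0.40 for the mitoribosomal genes.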
